A study of Mus musculus with 15 samples.

Results

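The 8 genes described here are 2 ligands of the TNF superfamily, Tnf and Tnfsf10, and 6 receptors, Tnfrsf1a, Tnfrsf1b, Tnfrsf10b, Tnfrsf12a, Fas and Ltbr. They were taken as the rows of the deposited count table that carry these symbols, 8 of 55487 genes, and their counts were followed across 3 groups of mouse skin. All mice were on the C57BL/6 background and 3 weeks old. The WT group was floxed littermates, Otulin fl/fl without a Cre transgene. The other groups, OTULIN-KO non-lesional and OTULIN-KO lesional, were unaffected and affected skin of Otulin fl/fl K14-Cre mice, in which the keratin 14 promoter drives Cre in keratinocytes only. Each group held 5 libraries, and the labels of the WT libraries also give their skin as non-lesional. The samples were whole skin, so each holds cells that kept OTULIN, the enzyme that removes linear ubiquitin chains. The study describes these data as coming from 5 mice, presumably in each group, without saying which library came from which animal or whether lesional and non-lesional pieces were taken from the same ones. The p-values here measure the spread between these samples.

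TNF binds TNFR1 (Tnfrsf1a), which most cells carry, and TNFR2 (Tnfrsf1b), which is more restricted. TNFR1 first builds a membrane complex, in which linear ubiquitin chains help to activate NF-kB, and can then pass to a second complex that starts apoptosis through caspase-8 or necroptosis through RIPK3 and MLKL. Fas and TRAIL-R (Tnfrsf10b, the receptor for the ligand TRAIL, Tnfsf10) are death receptors that recruit FADD and caspase-8 directly. Fn14 (Tnfrsf12a), the receptor for TWEAK, and the lymphotoxin beta receptor (Ltbr) lack a death domain and signal through TRAF proteins. The comparisons ask whether skin without keratinocyte OTULIN, with or without a visible lesion, differed in the transcripts of these ligands and receptors.

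Libraries held 1962604 to 2567138 counts, and levels are given as CPM, counts scaled to a common library size, after TMM, a correction for composition. In the 3′ protocol used, each transcript gives reads from its 3′ end only, so CPM needs no division by gene length and levels can be compared between genes. A count of 0 in these libraries allows a level of up to 1.13 to 1.54 CPM (3 counts, a one-sided limit for counting error only). Otulin itself, the targeted gene, lay between 12.3 and 30.7 CPM and averaged 22.9 ± 6.48 in WT, 25.9 ± 4.12 in non-lesional and 24.5 ± 3.31 CPM in lesional skin (SD, n = 5 each). The Otulin counts thus overlapped in all 3 groups. The sources used here do not say which exons Cre removes, and 3′ reads outside them check nothing. All 7 keratinocyte markers searched for were detected in every group, led by Krt10 and Dsp.

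The lesional libraries were not alike. Summed levels of 6 markers of hyperplastic epidermis, led by Krt6a and Krt17, were 33210 CPM in lesional library 11 and 13520 CPM in lesional library 2. In lesional libraries 5, 8 and 14 the same sum was 732.5, 785.9 and 970.6 CPM, inside the WT range of 658.8 to 2194 CPM. The 10 neutrophil markers followed the same order, with 5111 CPM in lesional library 11, 3003 CPM in lesional library 2 and 32.8 to 62.7 CPM in the other lesional libraries, beside 36.7 to 76.7 CPM in WT and 28.04 to 244 CPM in non-lesional skin. That sum was carried by S100a8 and S100a9, which keratinocytes can also make, and the neutrophil genes Ly6g, Csf3r and Mpo were at 0 in every library. Camp and Ngp were at 0 in WT and non-lesional skin but detected in lesional skin, and Cxcr2 was at 0 in WT only. Of the 10 markers 4, 5 and 7 were detected in WT, non-lesional and lesional skin. Lesional library 11 also had the lowest fibroblast sum (16290 CPM), endothelial sum (117.9 CPM) and skeletal muscle sum (3572 CPM) of all libraries. Its keratinocyte sum was the highest (16240 CPM), followed by lesional library 2 (12570 CPM). That sum was 6884 to 10040 CPM in WT and 7628 to 10660 CPM in non-lesional skin. Fold changes of lesional skin that are described by name are therefore given with and without library 11. In whole skin, fewer cells of a type and less RNA per cell cannot be told apart.

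The genes lie apart in the genome, and in the annotation none has an exon overlapping one of another gene. On mouse build GRCm38 Tnf is at chr17:35199381-35202007 and Tnfrsf12a at chr17:23675445-23677468, both on the minus strand. Fas lies on the plus strand of chromosome 19, Tnfsf10 on the plus strand of chromosome 3, Tnfrsf1b on the minus strand of chromosome 4 and Tnfrsf10b on the plus strand of chromosome 14. Tnfrsf1a and Ltbr, the most highly counted members, are neighbours on chromosome 6 with 35476 bases between them. The 250 bases before the RefSeq start were at hand for 7 of the 8 genes (RefSeq, GRCm38.p6), all but Tnfrsf10b.

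4 of these promoters are shown because they belong to Tnf and Tnfrsf12a, the members with the most extreme values in lesional library 11, to Tnfrsf1b, which was also highest there, and to Fas, which was not. They are written 5′ to 3′ on the strand of the gene and end at the base before the start. Capitals mark matches, on either strand, to the TATA box (TATAAA), the GC box (GGGCGG), the AP-1 site (TGANTCA) and the interferon-stimulated response element (ISRE, GAAANNGAAA). The regions are chr17:35202008-35202257 (minus strand) for Tnf, chr17:23677450-23677699 (minus strand) for Tnfrsf12a, chr4:145246871-145247120 (minus strand) for Tnfrsf1b and chr19:34290409-34290658 (plus strand) for Fas.
Tnf: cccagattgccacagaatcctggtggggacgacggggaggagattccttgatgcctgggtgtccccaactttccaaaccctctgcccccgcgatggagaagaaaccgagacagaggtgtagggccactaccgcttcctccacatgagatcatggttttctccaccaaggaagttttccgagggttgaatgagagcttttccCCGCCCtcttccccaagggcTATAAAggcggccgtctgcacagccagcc
Tnfrsf12a: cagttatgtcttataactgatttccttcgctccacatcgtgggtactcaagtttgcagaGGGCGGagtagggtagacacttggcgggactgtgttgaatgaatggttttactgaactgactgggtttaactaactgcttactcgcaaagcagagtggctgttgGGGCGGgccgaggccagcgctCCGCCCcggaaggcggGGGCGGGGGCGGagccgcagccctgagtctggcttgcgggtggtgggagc
Tnfrsf1b: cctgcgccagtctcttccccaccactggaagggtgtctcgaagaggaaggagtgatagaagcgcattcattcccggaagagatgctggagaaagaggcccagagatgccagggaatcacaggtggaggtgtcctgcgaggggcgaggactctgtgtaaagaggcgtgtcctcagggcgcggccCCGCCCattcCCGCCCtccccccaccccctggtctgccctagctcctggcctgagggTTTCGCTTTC
Fas: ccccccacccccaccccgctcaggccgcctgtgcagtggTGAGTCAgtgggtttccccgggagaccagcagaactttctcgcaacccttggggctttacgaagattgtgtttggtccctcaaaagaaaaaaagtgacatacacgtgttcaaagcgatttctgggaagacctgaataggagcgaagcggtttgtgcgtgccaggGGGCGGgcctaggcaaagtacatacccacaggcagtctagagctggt
Tnf carried the single TATA box of the 7 promoters, 29 to 24 bases before the start, a motif found in 12.4% of all 32851 promoters of this length. Tnfrsf12a carried 5 GC boxes, none overlapping another, and 32.7% of all promoters held at least 1. Tnfrsf1b carried the ISRE, which 2.98% of promoters held, and Fas the AP-1 site, which 6.75% held. The consensus site of NF-kB, searched by name on both strands, was in 3.9% of all promoters and in none of these 7 windows. Tnfsf10 and Tnfrsf1a held none of the motifs, and Ltbr held 2 GC boxes. These matches describe the windows and were not tested against the levels.

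The levels of the 8 genes spanned about 2 orders of magnitude. Over all 15 libraries the median was 131.3 CPM for Tnfrsf1a, 87.5 CPM for Ltbr, 16.6 CPM for Tnfrsf1b, 5.68 CPM for Fas, 4.64 CPM for Tnfrsf12a, 4.54 CPM for Tnfsf10, 2.63 CPM for Tnfrsf10b and 1.34 CPM for Tnf. The first 3 steps of this order held within every library: Tnfrsf1a was above Ltbr, Ltbr above Tnfrsf1b and Tnfrsf1b above Fas in 15 of 15. Below that the neighbours overlapped, with Fas above Tnfrsf12a in 10 of 15 libraries and Tnfrsf12a above Tnfsf10 in 10 of 15. TNFR1 and the lymphotoxin beta receptor together made up 77.4% to 93.2% of the summed level of the 8 genes. TNFR1 transcripts outnumbered TNFR2 transcripts in every library, by a ratio with a median of 7.0 and a range of 3.94 to 14.2. In lesional skin this ratio covered the range of 4.21 to 14.2, in WT 3.94 to 12.1 and in non-lesional skin 6.39 to 8.09.

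**Figure D1:**
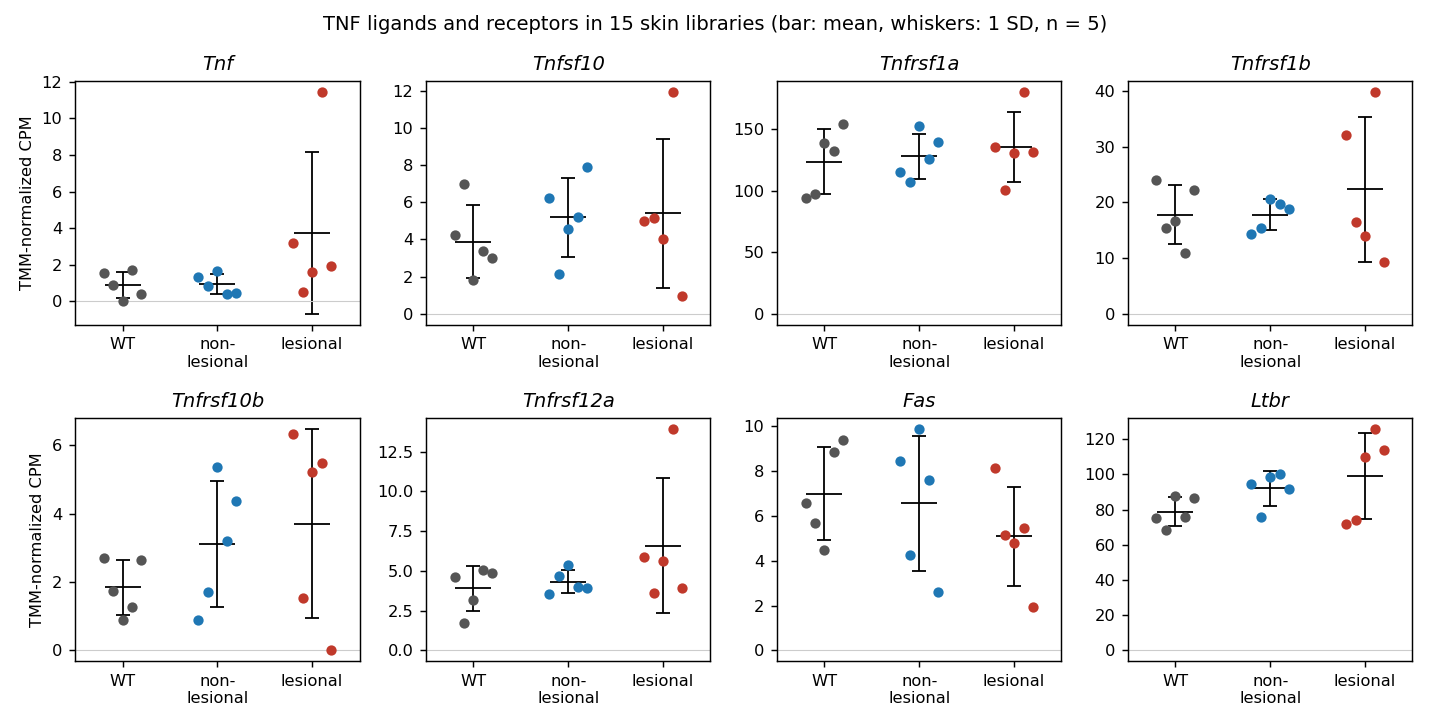
Levels of the 8 genes in each of the 15 libraries, in TMM-normalized CPM on a linear axis with its own scale in each panel. Points are libraries in order of replicate number, the bar is the group mean and the whiskers are 1 SD (n = 5). Lesional library 11 is the highest point in the panels of Tnf, Tnfsf10, Tnfrsf1a, Tnfrsf1b, Tnfrsf12a and Ltbr, and the groups overlap in every panel.

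In differential testing by edgeR's quasi-likelihood test, no gene tested after the filter on low counts passed an adjusted p of 0.05 in any comparison (0% of 13021, 12918 and 12864 genes tested for non-lesional against WT, lesional against WT and lesional against non-lesional), and so none of the 8 did. With no filter on low counts edgeR called 18, 0 and 0 genes, DESeq2 with the filter called 3, 1 and 0, and limma-voom 0, none of them a member. A fit with each run of 3 consecutive library numbers as a block, chosen after seeing the data, called 8, 0 and 0 with the filter and 72, 41 and 256 with no filter, again no member. At an unadjusted p under 0.05 edgeR placed 3.16%, 4.81% and 4.22% of all tested genes, and 0 members in each comparison. Tnfsf10, Tnfrsf1a, Tnfrsf1b, Tnfrsf12a, Fas and Ltbr passed the filter, while Tnf and Tnfrsf10b did not and were fitted with no filter, where 4.53%, 4.78% and 4.49% of genes had an unadjusted p under 0.05. In that fit the members under it numbered 0, 1 and 1 of 8, each time Tnf. Groups that did not overlap were found for 0.653%, 0.697% and 0.606% of genes and for no tested member. Of the 6 tested members 4, 5 and 5 had a log2 fold change above 0, beside 49.4%, 49.5% and 50.6% of all genes. The comparisons share libraries, so their counts are not independent.

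Tnf, the founding ligand of the family and mainly a product of myeloid cells, T cells and activated keratinocytes, was at the limit of detection in most libraries. Its counts were 4, 2, 0, 4 and 1 in WT libraries 1, 4, 7, 10 and 13, and 3, 2, 4, 1 and 1 in non-lesional libraries 3, 6, 9, 12 and 15. In lesional libraries 2, 5, 8, 11 and 14 they were 7, 1, 4, 23 and 4, or 3.17, 0.514, 1.60, 11.4 and 1.95 CPM. The non-lesional levels of 0.401 to 1.65 CPM lay inside the WT range of 0 to 1.69 CPM, and lesional library 11 alone held 23 of the 39 lesional counts, with an exact Poisson interval of 14.6 to 34.5 counts. Group means were 0.897 ± 0.729 CPM in WT, 0.935 ± 0.550 CPM in non-lesional and 3.73 ± 4.41 CPM in lesional skin (SD, n = 5 each). The fitted log2 fold change was 1.98 ± 0.72 (SE) for lesional over WT (edgeR with no filter, unadjusted p = 0.0101, adjusted p = 0.721) and 1.93 ± 0.66 for lesional over non-lesional (unadjusted p = 0.00511, adjusted p = 0.73). The exact permutation test over samples gave p = 0.103 and p = 0.0794 (two-sided, over all regroupings, smallest possible p = 0.0079). Without lesional library 11 the log2 fold changes fell to 0.96 (edgeR, unadjusted p = 0.227) and 0.92 (unadjusted p = 0.231), and the lesional mean to 1.81 ± 1.09 CPM. For non-lesional over WT the log2 fold change was 0.04 ± 0.83, with a 95% interval of the fold from 0.333 to 3.19. Folds inside it were not told apart by these libraries.

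Tnfsf10, which encodes TRAIL, was detected in every library but at 2 to 24 counts. WT libraries gave 4.25, 6.996, 1.79, 3.38 and 3.01 CPM, non-lesional libraries 6.23, 2.13, 4.54, 5.21 and 7.88 CPM, and lesional libraries 4.98, 5.14, 4.003, 11.9 and 0.973 CPM. The groups overlapped, and the lesional group held both the highest value, in library 11, and the lowest, in library 14. The log2 fold changes were 0.41 ± 0.39 for non-lesional over WT, 0.47 ± 0.51 for lesional over WT and 0.05 ± 0.49 for lesional over non-lesional (edgeR, adjusted p from 0.939 to 1). The first value was 0.22 without non-lesional library 15 and 0.72 without WT library 4, and without lesional library 11 the last 2 turned to -0.037 and -0.45.

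TNFR1, the receptor through which TNF starts both NF-kB activation and cell death and the most abundant member, had like means in the 3 groups. Tnfrsf1a was at 94.3, 97.5, 138.6, 132.6 and 154.5 CPM in WT, at 115.3, 107.2, 152.6, 125.4 and 139.2 CPM in non-lesional and at 135.3, 100.7, 130.9, 180.1 and 131.3 CPM in lesional skin. All 5 non-lesional libraries lay inside the WT range, and of the lesional libraries only number 11 lay above it. Means were 123.5 ± 26.5, 127.9 ± 18.2 and 135.7 ± 28.4 CPM in WT, non-lesional and lesional skin (SD, n = 5 each). The fold over WT was 1.04 in non-lesional skin with a 95% interval of 0.844 to 1.27, and 1.10 in lesional skin with an interval of 0.842 to 1.44 (edgeR, adjusted p = 1 and 0.95). Without lesional library 11 the log2 fold change of lesional over WT was 0.015.

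TNFR2, the receptor of more limited distribution that signals through TRAF2, spread widely within the lesional group. Tnfrsf1b was at 24.0, 15.3, 16.6, 10.98 and 22.2 CPM in WT, at 14.3, 15.3, 20.6, 19.6 and 18.8 CPM in non-lesional and at 32.1, 16.4, 14.01, 39.8 and 9.24 CPM in lesional skin. Lesional libraries 11 and 2 were the highest of all 15 and lesional library 14 the lowest, while non-lesional skin stayed inside the WT range. The coefficient of variation was 58.3% in lesional skin, beside 29.7% in WT and 15.7% in non-lesional skin. The log2 fold change was -0.012 ± 0.21 for non-lesional over WT and 0.32 ± 0.37 for lesional over WT (edgeR, adjusted p = 1 and 0.943), and 0.01 for the latter without lesional library 11.

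The death receptors gave no called difference. Tnfrsf10b, the receptor for TRAIL, had 7, 4, 2, 3 and 7 counts in WT, 2, 4, 13, 8 and 10 in non-lesional and 14, 3, 13, 11 and 0 in lesional libraries. On the CPM scale 3 of 5 libraries of each OTULIN-KO group were above every WT library, and the others held 4 counts or fewer, too few to tell them from the lowest WT libraries. Its log2 fold change was 0.72 ± 0.52 for non-lesional over WT, 0.98 ± 0.59 for lesional over WT and 0.27 ± 0.57 for lesional over non-lesional (edgeR with no filter, adjusted p from 0.721 to 0.933). The first was 0.435 without non-lesional library 9 and 0.94 without non-lesional library 3, and the last 2 were 0.81 and 0.10 without lesional library 11. Fas, the receptor for Fas ligand, was at 6.57, 5.68, 4.49, 8.87 and 9.40 CPM in WT, at 8.46, 4.25, 9.90, 7.61 and 2.63 CPM in non-lesional and at 8.15, 5.14, 4.80, 5.47 and 1.95 CPM in lesional skin. It was the member with a lower mean in both OTULIN-KO groups, 7.002 ± 2.09 CPM in WT, 6.57 ± 3.03 CPM in non-lesional and 5.10 ± 2.21 CPM in lesional skin (SD, n = 5 each), and the groups overlapped. The log2 fold change of Fas was -0.096 ± 0.34 for non-lesional over WT and -0.45 ± 0.35 for lesional over WT (edgeR, adjusted p = 1 and 0.932). The second value was -0.48 without lesional library 11 and -0.25 without lesional library 14, the lowest.

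Tnfrsf12a encodes Fn14, which is induced in injured and growing epithelia. It was at 4.64, 1.75, 3.14, 5.07 and 4.89 CPM in WT, at 3.56, 4.68, 5.36, 4.01 and 3.94 CPM in non-lesional and at 5.88, 3.60, 5.61, 13.9 and 3.89 CPM in lesional skin. 3 of 5 lesional libraries lay above every library of the other groups and the remaining ones inside their range. The log2 fold change was 0.74 ± 0.43 for lesional over WT (edgeR, unadjusted p = 0.105, adjusted p = 0.926) and 0.60 ± 0.38 for lesional over non-lesional (edgeR, adjusted p = 0.973). Without lesional library 11 these were 0.28 and 0.15. The difference between non-lesional skin and WT was 0.13 ± 0.34 on the log2 scale.

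Ltbr, the receptor for lymphotoxin and LIGHT, came nearest to a difference in non-lesional skin. It was at 75.4, 68.2, 87.5, 76.0 and 86.9 CPM in WT, at 94.4, 75.7, 98.6, 100.5 and 91.5 CPM in non-lesional and at 72.0, 74.0, 109.7, 125.9 and 113.8 CPM in lesional skin. 4 of 5 non-lesional and 3 of 5 lesional libraries were above all WT libraries, and the other libraries fell inside the WT range. Within each of the 5 runs of consecutive library numbers, a pairing chosen after seeing the data, Ltbr was higher in the non-lesional than in the WT library, as were 4.0% of 13608 genes. Means were 78.8 ± 8.24 CPM in WT, 92.1 ± 9.84 CPM in non-lesional and 99.0 ± 24.6 CPM in lesional skin (SD, n = 5 each). The fold over WT was 1.17 in non-lesional skin with a 95% interval of 0.988 to 1.38 (edgeR, unadjusted p = 0.0666, adjusted p = 1), and the exact permutation test gave p = 0.0556. In lesional skin the fold was 1.26 with an interval of 0.972 to 1.63 (edgeR, unadjusted p = 0.0769, adjusted p = 0.926), and the exact permutation test gave p = 0.135. Without lesional library 11 the log2 fold change of Ltbr in lesional skin was 0.23 over WT (edgeR, unadjusted p = 0.183) and 0.0049 over non-lesional skin. In the fit with the block its log2 fold change for non-lesional over WT was 0.23 (edgeR, unadjusted p = 0.0357, adjusted p = 0.812). Lesional libraries 2 and 11, which shared the high sums of hyperplastic epidermis markers, differed in Ltbr, with 72.0 and 125.9 CPM. Over all 8 members and 3 comparisons the exact permutation p ranged from 0.0556 to 0.992, and every adjusted value was 1. By the same test 3.08%, 3.53% and 3.35% of all genes had p under 0.05.

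**Figure D2:**
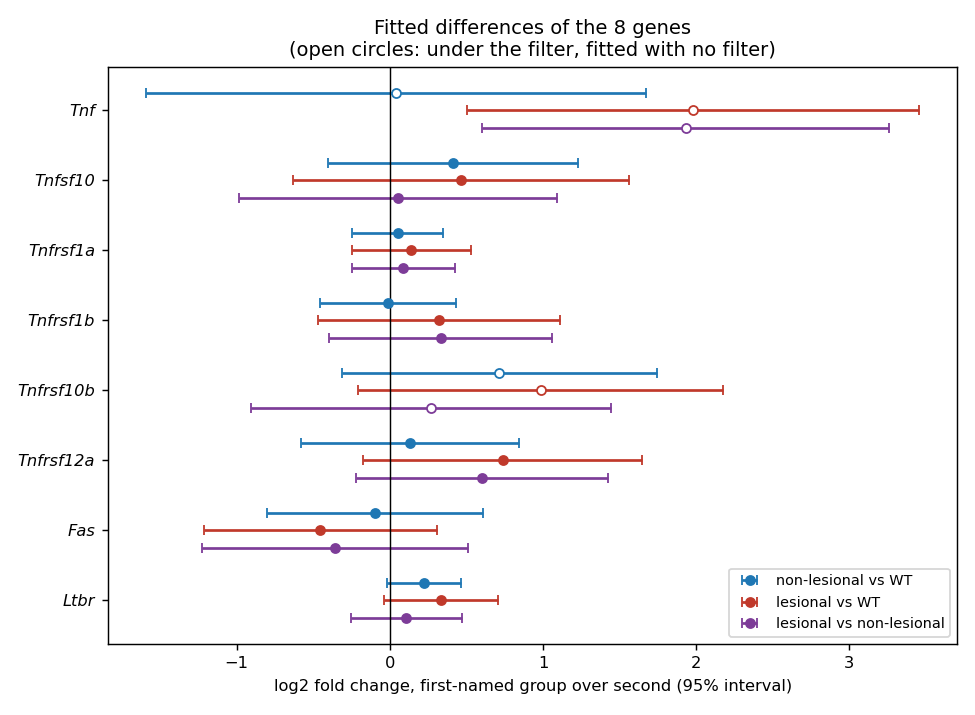
Fitted log2 fold change of each gene with its 95% interval from edgeR, for the 3 comparisons, first-named group over second. Filled circles passed the filter on low counts and open circles (Tnf, Tnfrsf10b) were fitted with no filter. The intervals of Tnf in the comparisons with lesional skin, 0.50 to 3.45 and 0.61 to 3.26, are the ones that leave out 0, and neither passed the adjusted threshold.

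Lesional library 11 held the highest level of 6 of the 8 members, Tnf, Tnfsf10, Tnfrsf1a, Tnfrsf1b, Tnfrsf12a and Ltbr. Among 13608 genes with at least 10 counts in 5 or more libraries it was the highest library for 21.2%, and the lowest for 22.2%. Lesional library 14 held the lowest level of 4 members, Tnfsf10, Tnfrsf1b, Tnfrsf10b and Fas, and was the lowest library for 15.5% of these genes. No WT library was the highest for any member, and each was the highest for 4.35% to 8.01% of these genes. Fas peaked in non-lesional library 9, the highest library for 4.14% of them.

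**Figure D3:**
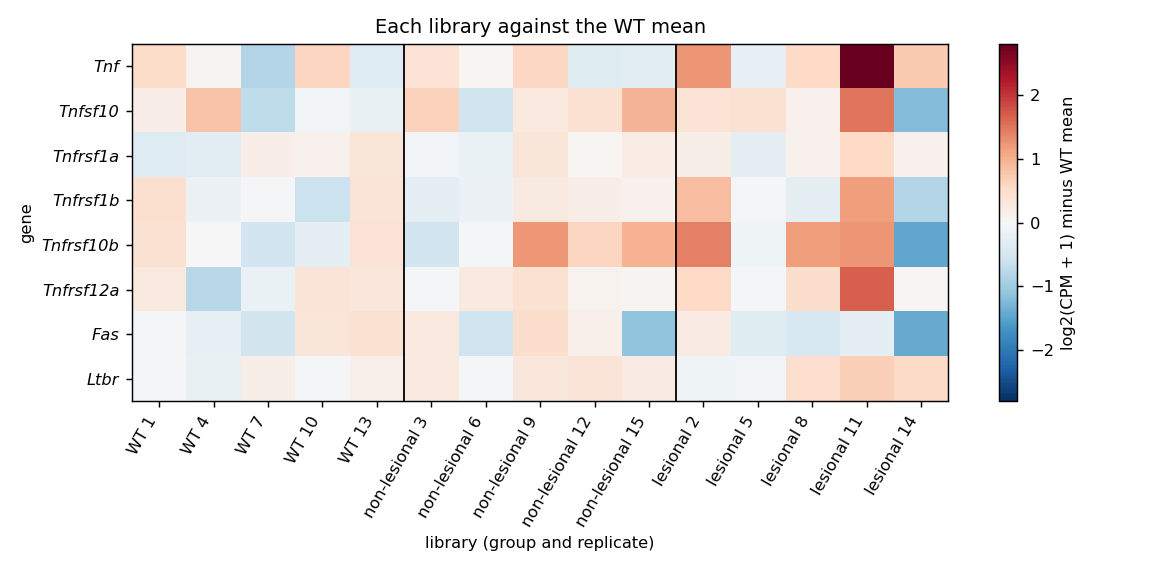
Difference of log2(CPM + 1) from the WT mean for the 8 genes (rows) in the 15 libraries (columns, by group and replicate), red above and blue below. The column of lesional library 11 is red for 7 genes, most for Tnf (2.81) and Tnfrsf12a (1.67), and that of lesional library 14 is blue for Tnfrsf10b, Fas, Tnfsf10 and Tnfrsf1b.

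The 2 members with the most extreme lesional values were read beside the marker sums. Tnf was at 11.4 CPM and Tnfrsf12a at 13.9 CPM in lesional library 11, which had the highest sums of hyperplastic epidermis and neutrophil markers. In lesional library 2, which came second in both sums, they were at 3.17 and 5.88 CPM, also second of the 15 libraries. These are 7 and 13 counts, with exact Poisson intervals of 1.27 to 6.53 and 3.13 to 10.1 CPM. Lesional library 8, low in both sums, had 14 counts of Tnfrsf12a (5.61 CPM), and both second ranks lie inside counting error. Tnfrsf1b, at 39.8 and 32.1 CPM, was also highest in lesional libraries 11 and 2. Ltbr was highest in lesional library 11 but at 72.0 CPM in lesional library 2, below 4 of 5 WT libraries. In the other 13 libraries Tnf was at 1.95 CPM or less and Tnfrsf12a at 5.61 CPM or less. Macrophage markers were less unequal, with 766.6 CPM in lesional library 11, 677.5 CPM in lesional library 2 and 376.7 to 792.2 CPM in WT. The part of epidermal thickening or of infiltrating cells in the levels of Tnf and Tnfrsf12a was not tested.

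**Figure D4:**
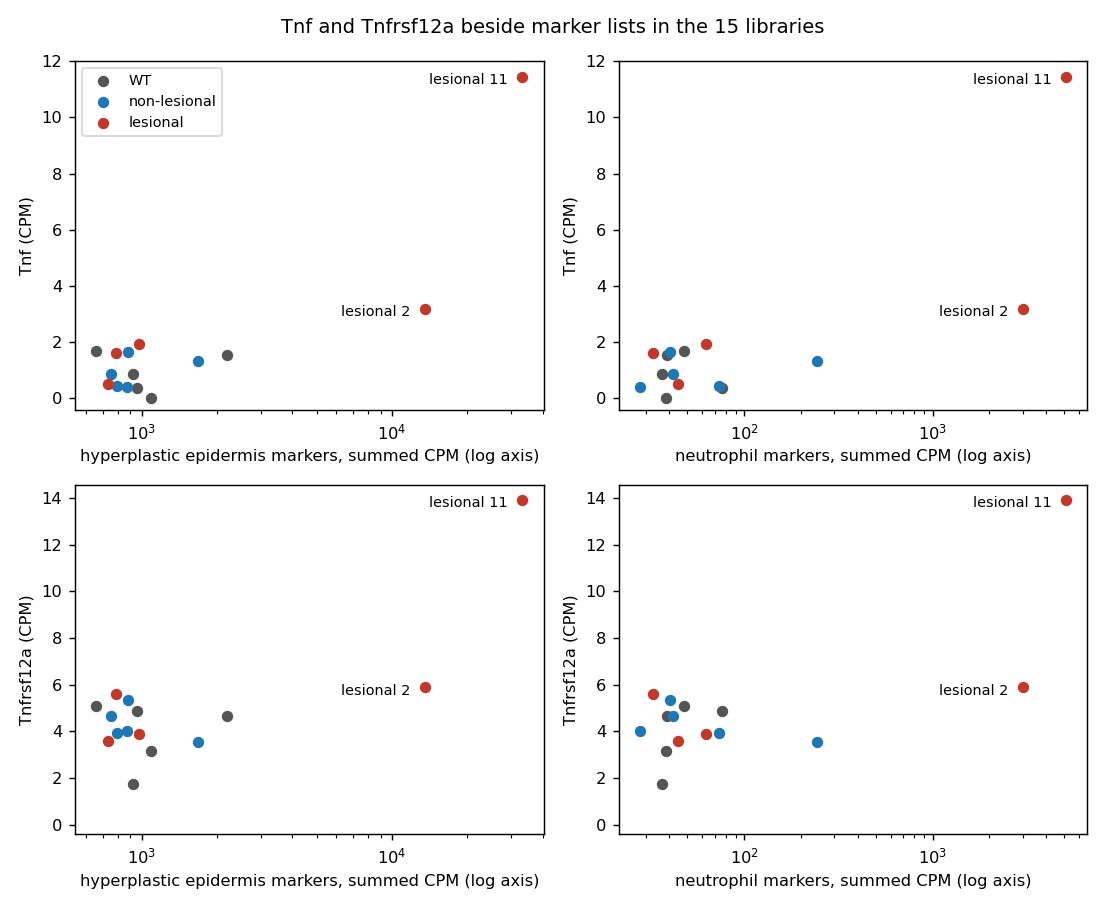
Levels of Tnf (top) and Tnfrsf12a (bottom) in CPM against the summed CPM of 6 hyperplastic epidermis markers (left) and 10 neutrophil markers (right, log axis in each panel) in the 15 libraries. Lesional libraries 11 and 2 lie apart to the right in all panels, and the other 13 libraries reach at most 2194 CPM on the left and 244 CPM on the right.

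The genes whose levels most resembled those of a member were found by Pearson's r of log2(CPM + 1) over the 15 libraries among 13608 genes, as a description. For Tnfsf10 they were Arpin (r = 0.916), Pfdn2 (0.91) and Pthlh (0.892), for Tnfrsf1a Abhd12 (0.878), Abhd6 (0.862) and Crybg2 (0.856), and for Ltbr Fbxw9 (0.898), Cd3eap (0.864) and Mb21d2 (0.849). For Tnfrsf1b they were Adam10 (0.914), the protease that sheds many membrane proteins, Actr2 (0.913) and Cldnd1 (0.909). For Tnfrsf12a they were Rab6a (0.899), Dcaf13 (0.896) and Mpzl3 (0.892), which fell to 0.752, 0.81 and 0.737 without lesional library 11. For Fas they were Rida (0.831), a gene with no symbol in the table (0.826) and Mfsd9 (0.824), and for Tnfrsf10b 3 genes of the protocadherin gamma cluster (0.859 to 0.862), which share exons with each other. Among the members the highest r was 0.75, between Tnfrsf1b and Tnfrsf10b, and the neighbours Tnfrsf1a and Ltbr had r = 0.658, or 0.527 without lesional library 11. The points share libraries of mixed cell content, and the genes named are the highest of 13608 searched. How often such values arise in a search of that size was not tested.

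Of 16 other ligands of the family, 3 were tested against WT and 5 between the OTULIN-KO groups, and none had an unadjusted p under 0.05. Tnfsf12, which encodes TWEAK, the ligand of Fn14, had log2 fold changes of -0.17 ± 0.26 in non-lesional and -0.37 ± 0.29 in lesional skin over WT, the latter -0.26 without lesional library 11. The median of the 3 tested ligands in lesional over WT was -0.38, and that of the list with no filter on low counts 0.47. The T cell ligand Cd40lg was at 0 in every library. Fasl, the ligand of Fas, and Tnfsf14 were at 0 in all 5 non-lesional libraries, and Tnfsf11 was at 0 in every WT library. A count of 0 leaves room for a low level. Of 22 other receptors 9 or 10 were tested, and the single one with an unadjusted p under 0.05 was Tnfrsf25, a death receptor of the family. It was at 1.28 ± 0.44 for non-lesional over WT (edgeR, unadjusted p = 0.00944, adjusted p = 1). For lesional over WT it did not pass the filter with all libraries. Without lesional library 11 it was at 1.36 ± 0.48 there (edgeR, unadjusted p = 0.0127). For lesional over non-lesional it was at -0.036 ± 0.35, or 0.076 without lesional library 11. The list medians of the receptors were 0.15, 0.069 and 0.013 in the 3 comparisons, beside medians of -0.0027, -0.0034 and 0.0031 over all genes. Leaving out each library moved the receptor medians from 0.055 (without WT library 1) to 0.29 (without non-lesional library 6), from 0.0014 (without lesional library 2) to 0.18 (without WT library 7) and from -0.21 (without lesional library 8) to 0.079 (without non-lesional library 15).

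All 11 genes that act on the shedding of TNF, for or against it, or on decay of its mRNA were tested. Counts by direction and medians of this list thus pool genes of opposite effect. Against WT none had an unadjusted p under 0.05. In non-lesional skin 9 of 11 were lower than in WT, with a list median of -0.14, or -0.062 without WT library 1, which had the highest sum of this list in WT, and in lesional skin 6 were higher and 5 lower, with a median of 0.042, or -0.0029 without lesional library 11 and 0.13 without WT library 1. Between lesional and non-lesional skin 9 of 11 were higher, 2 of them at that level: Frmd8, a partner of the iRhom proteins, at 0.54 ± 0.23 and Adam17, the protease that releases TNF from the membrane, at 0.27 ± 0.12 (edgeR, unadjusted p = 0.0316 and 0.0392, adjusted p = 0.973 for both). Among all genes of that comparison 50.6% were higher and 4.22% were at that level. Without lesional library 11 none of the 11 was, with Frmd8 at 0.42 and Adam17 at 0.24, and the list median fell from 0.24 to 0.14.

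Of 27 genes of the receptor complexes 25 were tested in each comparison, with medians of -0.0017, 0.048 and 0.037. Leaving out each library moved these medians from -0.053 to 0.0395, from -0.0022 to 0.099 and from -0.0005 to 0.083. In each comparison 1 of the 25 had an unadjusted p under 0.05, beside 3.16%, 4.81% and 4.22% of all genes. Traf2, the adaptor that TNFR2 and Fn14 bind, stood at 0.77 ± 0.33 for non-lesional and 0.88 ± 0.39 for lesional skin over WT (edgeR, unadjusted p = 0.0317 and 0.0428, adjusted p = 1 and 0.926), the latter 0.79 without lesional library 11 (edgeR, unadjusted p = 0.0776). Map3k14, the kinase of the alternative NF-kB pathway below Ltbr and Fn14, was at 0.67 ± 0.31 for lesional over non-lesional skin (edgeR, unadjusted p = 0.0489, adjusted p = 0.973), and at 0.30 without lesional library 11. Among 14 genes of death execution 10 were tested, and Casp8, the initiator caspase of the death receptors, was at 0.56 ± 0.21 for lesional over WT (edgeR, unadjusted p = 0.0206, adjusted p = 0.926), and at 0.40 without lesional library 11 (unadjusted p = 0.0705).

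Of 28 genes that TNF is known to induce 12 passed the filter on low counts and were tested. In non-lesional over WT 7 were higher and 5 lower, none at an unadjusted p under 0.05, with a median of 0.082, or -0.034 without non-lesional library 12. In lesional over WT 11 were higher, 2 of them at that level, with a median of 0.38, which was 0.14 without lesional library 11 and 1.39 for the list with no filter on low counts. These 2 were Vcam1, an adhesion molecule, at 0.74 ± 0.25 and Mmp9, a matrix protease, at 1.88 ± 0.82 (edgeR, unadjusted p = 0.00979 and 0.0442, adjusted p = 0.926 for both), and without lesional library 11 they were at 0.58 (edgeR, unadjusted p = 0.0343) and 0.46. In lesional over non-lesional 11 of 12 were higher, with a median of 0.31, beside 50.6% of all genes. Leaving out lesional library 11 left 7 of 12 higher with a median of 0.11, and leaving out lesional library 5 gave 0.49. With no filter the median was 1.19. In the fit with the filter Rel, an NF-kB subunit, was at 0.60 ± 0.28 (edgeR, unadjusted p = 0.0457, adjusted p = 0.973), and at 0.29 without lesional library 11. The summed level of the 28 genes was 2569 CPM in lesional library 11, 1272 CPM in lesional library 2 and 700.3 to 858.7 CPM in the other lesional libraries, beside 777.8 to 934.1 CPM in WT.

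The genes induced by type I interferon gave another pattern, which was seen also in the pieces labelled non-lesional. Of 15 tested, all 15 were higher in non-lesional skin than in WT, 13 at an unadjusted p under 0.05, with a median log2 fold change of 1.19, or 0.77 among those with at least 10 counts in every library. Ifit1, an antiviral RNA-binding protein, was at 2.15 ± 0.41 (edgeR, unadjusted p = 6.53e-05, adjusted p = 0.723), followed by Rtp4 at 1.75 ± 0.38 and Ifi44 at 1.78 ± 0.42. In lesional over WT all 15 were higher at that level, with a median of 2.20, or 1.25 without lesional library 11, and none passed the adjusted threshold in either comparison. The summed level of the 20 listed genes was 2506 CPM in lesional library 11 and 1196 CPM in lesional library 2. In the other lesional libraries it was 272.2 to 440.1 CPM, inside the non-lesional range of 263.7 to 574.4 CPM and above the WT range of 208.6 to 251.1 CPM. The calls of this list in non-lesional skin depended on the fit: 9 of its genes passed an adjusted p of 0.05 in edgeR with no filter, 5 with the block of consecutive numbers and 3 in DESeq2 (Ifit1, Oasl2 and Rtp4, chosen after their values were seen), all higher than in WT. In lesional over non-lesional all 17 tested were higher, 1 at an unadjusted p under 0.05, with a median of 0.98, or 0.29 without lesional library 11. This list is set beside the receptors because Tnfsf10 and Fas can respond to interferon. In the same non-lesional libraries Tnfsf10 had a log2 fold change of 0.41 ± 0.39 and Fas of -0.096 ± 0.34.

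**Figure D5:**
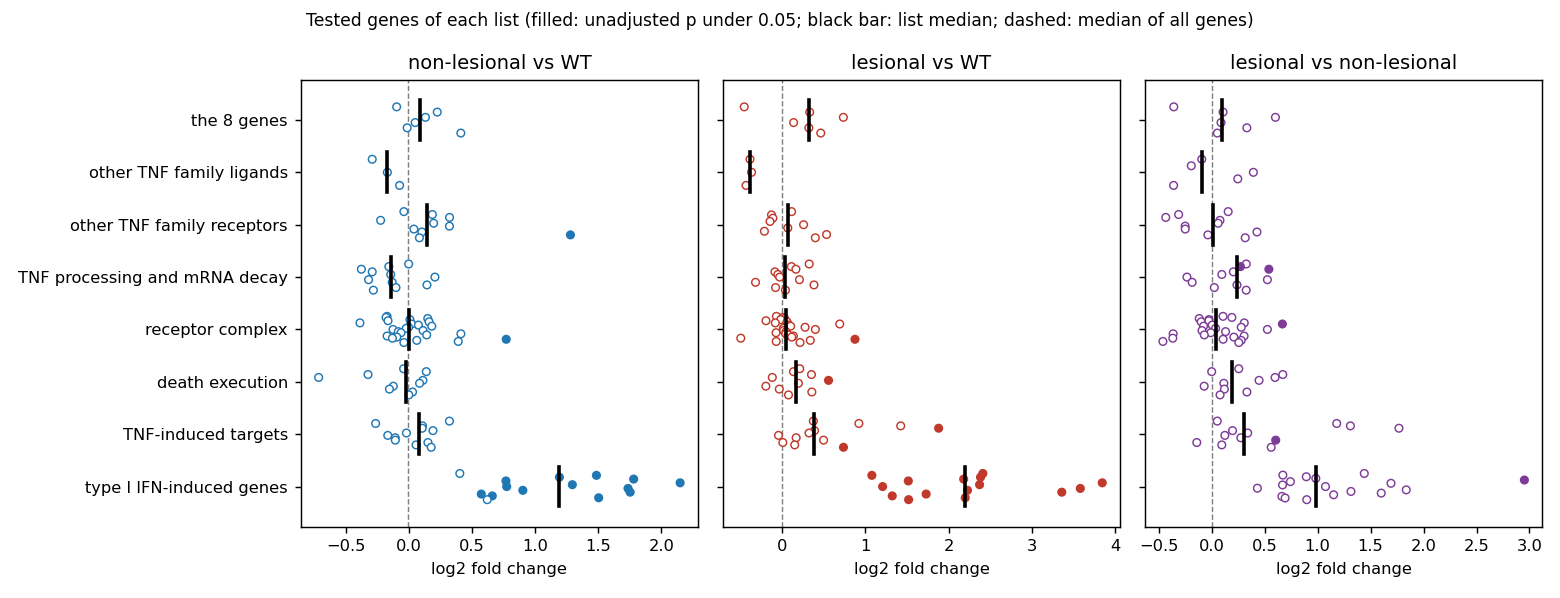
Log2 fold change of every tested gene of the 8 members and of the 7 pathway lists, in the 3 comparisons. Filled points have an unadjusted p under 0.05, black bars are list medians and the dashed line is the median of all genes. The 6 tested members show no filled point in any panel, while 13 of 15 interferon-induced genes are filled for non-lesional over WT, where their median is 1.19.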

How the data were processed

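QuantSeq 3′ libraries of 15 skin samples were analysed from the table of raw counts per gene that the authors deposited; per the labels and the study's methods it was made with cutadapt 2.10, Subread, SAMtools 1.7-2 and featureCounts 2.0.1 on GRCm38, with reads that met several genes counted for each. A deposited CPM table and 92 spike-in rows, all at 0, were not used. The methods give an RNA integrity limit of 4 both for exclusion and for inclusion, and no value per library. Each pair of groups was fitted with edgeR 4.0.16 (TMM, filterByExpr at a minimum count of 10, robust quasi-likelihood F-test, Benjamini-Hochberg adjustment over all genes tested, threshold 0.05); genes under the filter were fitted with no filter. Single levels were compared by an exact two-sided permutation test of log2(CPM + 1). DESeq2 1.42.0 and limma 3.58.1 (voomWithQualityWeights), other filters and scalings leaving out each library and, chosen after seeing the data, a block by consecutive library number were alternatives. The edgeR, DESeq2 and voom fits with no block were tested on simulated data. Poisson intervals and the limits of a count of 0 cover counting error only, edgeR intervals the spread between libraries. Members, gene lists and tests were chosen with earlier results of these data known. Named were all members, Otulin, in each list and comparison up to 3 genes of smallest p, the 3 genes most like each member with 10 counts in 5 libraries, and in marker lists the 2 most abundant genes and those at 0; the genes given are a selection of these. The markers Trdc, Krt85 and Hbb-bs were not analysed here.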

Additional observations from a re-analysis of the deposited data

Results flagged for a closer look

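Tnf in lesional library 11 was at 11.4 CPM, and the next lesional library was at 3.17 CPM. That gap was 0.757 of the range of the lesional group, above the critical value of 0.71 for 5 samples in Dixon's test. Tnfrsf12a in the same library was at 13.9 CPM with the next at 5.88 CPM, a gap of 0.779 of the range. These were 2 of 24 groups examined (8 genes in 3 groups), and chance flags about 1 in 20. Both values are from the library with the highest sums of hyperplastic epidermis and neutrophil markers. Whether these move the 2 genes was not tested.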

How the results depend on the processing

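No member passed the adjusted threshold in the 60 alternative counts made. Genes called for non-lesional against WT were 18 with no filter, 8 with a replicate block by consecutive library numbers and 3 by DESeq2, and 0 to 5 when each library was left out, with 5 without non-lesional library 6; With the block and no filter together 72 genes were called there, 41 for lesional against WT and 256 for lesional against non-lesional. DESeq2 called 1 for lesional against WT (Stfa3). Members at an unadjusted p under 0.05 were 1 with no filter in both lesional comparisons (Tnf) and, in each case Ltbr, 1 for lesional against WT with all 15 libraries in 1 fit, and leaving out a library gave 0 to 1 for non-lesional against WT (without WT library 7 or 13 or non-lesional library 6) and for lesional against WT (without lesional library 2 or 5). Tnf in lesional over WT lost its unadjusted p under 0.05 without lesional library 11. By voom the log2 fold change changed sign for Tnfrsf1b in non-lesional over WT (0.11) and for Tnfsf10 (-0.13) and Tnfrsf1a (-0.0052) in lesional over non-lesional. The cause of these changes was not tested. Leaving out each library moved these log2 fold changes across 0: in non-lesional over WT Fas from -0.29 to 0.10, Tnf from -0.25 to 0.37, Tnfrsf12a from -0.045 to 0.24, Tnfrsf1a from -0.031 to 0.15 and Tnfrsf1b from -0.14 to 0.12; in lesional over WT Tnfsf10 from -0.037 to 0.73; in lesional over non-lesional Tnfsf10 from -0.45 to 0.32, Tnfrsf1a from -0.037 to 0.18 and Tnfrsf10b from -0.0009 to 0.57. Differences of mean log2(CPM + 1) crossed 0 likewise: in non-lesional over WT Fas from -0.31 to 0.087, Tnf from -0.13 to 0.23, Tnfrsf12a from -0.028 to 0.26, Tnfrsf1a from -0.024 to 0.15 and Tnfrsf1b from -0.12 to 0.14; in lesional over WT Tnfrsf1b from -0.075 to 0.42 and Tnfsf10 from -0.077 to 0.60; in lesional over non-lesional Ltbr from -0.022 to 0.18, Tnfrsf10b from -0.24 to 0.48, Tnfrsf1a from -0.037 to 0.17, Tnfrsf1b from -0.10 to 0.39 and Tnfsf10 from -0.43 to 0.25. That of Tnfrsf10b in lesional over non-lesional was -0.0895 with a pseudocount of 0.5 and -0.015 with no TMM factor, both chosen after seeing the data. No alternative turned the sign of Ltbr against WT or of Tnf in lesional skin. At this depth Tnf and Tnfrsf10b, with medians of 3 and 7 counts, limit what could be detected. The labels give no replicate number to more than 1 group and do not say what consecutive numbers (a WT, a lesional and a non-lesional library) share. Deviations from the group means correlated at 0.117 to 0.267 between the WT and non-lesional library of a run, at 0.106 to 0.348 between its non-lesional and lesional library and at -0.094 to 0.261 between WT and lesional, and each library of the first-named group correlated best with its own run in 5, 5 and 2 of 5 runs. This is a hint from the data, not the design. The block, chosen after seeing these data, gave 1 member at an unadjusted p under 0.05 for non-lesional against WT (Ltbr) and turned Tnfrsf1b there to 0.0117 and Tnfsf10 in lesional over non-lesional to -0.0199. The median of the interferon-induced genes in lesional over WT was 1.61 with at least 10 counts in every library and 1.11 by voom in place of 2.20, and by voom 0.14 in place of 0.98 in lesional over non-lesional. That in non-lesional over WT was 0.77 in place of 1.19 with at least 10 counts in every library. By voom the medians of the TNF-induced genes were 0.17 in lesional over WT and 0.092 in lesional over non-lesional.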
